A study of Mus musculus with 36 samples.

Results

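Ly6a, Ly6d, Ly6c1, Psca, Cd24a, Epcam and Prom1 are 7 of the 45232 genes counted in RNA sequencing of primary mouse prostate organoids. They were taken by name, as genes whose surface proteins are used to mark progenitor and luminal cells, and the files' Ensembl identifiers were matched to mouse symbols. All 7 were measured above the filter on low counts, in every library. The organoids carried 1 of 4 doxycycline-inducible pCW constructs: wild-type FOXA1 (WT), the FOXA1 variant FE255del, the FOXA1 variant R219S, or an empty vector (EV, labelled empty vehicle). Each was sampled at days 0, 1 and 11 in 3 libraries, which gives 12 groups and 36 libraries. FOXA1, joined to DsRED through a 2A sequence, was induced with 500 ng/mL doxycycline, which EV cultures also received. Only the deposited tables' names say that cultures at day 0 had none. DsRED-positive cells were sorted and each construct's cultures were seeded in triplicate. As far as the labels say, a p-value here measures the spread between cultures of 1 sorted population per construct and not between animals. In a comparison of 2 constructs, the effect of the construct cannot be told apart from a difference between their sorted populations. The labels give no strain, age or number of mice, and no promoter or cell type that limits where the vector is active.

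FOXA1 is a forkhead transcription factor that opens chromatin in luminal prostate cells and works there with the androgen receptor. Ly6a (Sca-1), Ly6c1, Ly6d and Psca encode small proteins with a Ly6/uPAR fold that are tied to the outer membrane by a glycosylphosphatidylinositol (GPI) lipid anchor. Cd24a encodes a short, heavily glycosylated GPI-anchored protein, Epcam an epithelial adhesion molecule that spans the membrane, and Prom1 (CD133) a pentaspan glycoprotein of membrane protrusions. In the mouse prostate, Sca-1 and CD133 have been used to sort cells that form organoids or ducts, and Ly6d and Psca are known as markers of luminal progenitor cells.

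The libraries held 61476938 to 102385337 counts, and levels are given as CPM, a gene's share of the library's counts after TMM scaling. Foxa1, the gene of the induced construct, was at 410.2 to 419.4 CPM in WT, 290.6 to 343.8 CPM in FE255del and 302.7 to 311.9 CPM in R219S libraries at day 1, against 221.8 to 231.7 CPM in EV libraries. At day 0 it did not pass the test against EV in any construct (adjusted p = 0.0896 for WT, 0.994 for FE255del and 0.832 for R219S). Foxa1 at day 0 was nevertheless at 252.9 to 258.8 CPM in WT libraries, above all EV libraries at 227.2 to 237.1 CPM. In FE255del and R219S it overlapped with EV. At day 11 it was at 252.6 to 280.2 CPM in WT, 266.4 to 316.1 CPM in FE255del and 242.4 to 300.6 CPM in R219S libraries, against 216.8 to 240.7 CPM in EV libraries (adjusted p = 0.00269, 6.7e-06 and 0.00362). WT at day 11 did not pass against its own day 0 (log2 0.07 ± 0.06, adjusted p = 0.385), and its change minus EV's did not pass either (0.08 ± 0.08, adjusted p = 0.584). The epithelial genes Cdh1 (941.4 to 1488 CPM), Krt5 (750.2 to 6655 CPM) and Krt8 (107.9 to 507.8 CPM) were present in all 36 libraries. The leukocyte gene Ptprc did not exceed 0.348 CPM, Cdh5 of endothelium did not exceed 0.0297 CPM, Emcn of endothelium was at 0 in all 36 libraries, and Col1a1 of stroma did not exceed 1.5 CPM. Kdr of endothelium (at most 0.754 CPM) and Col3a1 (0.461) and Pdgfra (0.55) of stroma were also low. Pecam1 of endothelium, at 0.313 to 6.73 CPM, and Dcn of stroma, at 0.155 to 44.7 CPM, were detected in every library. Some lists of other cell types moved with the groups. The summed level of 12 immune genes was 56.89 to 74.5 CPM in WT and 45.51 to 53.38 CPM in FE255del libraries at day 1, against 4.914 to 5.181 CPM in EV libraries, with 10 of the 12 genes under a mean of 1 CPM in both FOXA1 groups. The summed level of 12 stromal genes was 216.9 to 233.4 CPM in R219S libraries at day 11, against 21.68 to 39.88 CPM in EV libraries. Of these 12 genes, 8 were under a mean of 1 CPM in R219S and 9 in EV, so the sum rests on few genes. The summed level of 10 urothelial genes was 931.8 to 965 CPM in WT and 1096 to 1257 CPM in FE255del libraries at day 11, against 138.8 to 142.5 CPM in EV libraries. The summed level of 20 basal genes was 3988 to 4150 CPM in WT, 2774 to 2971 CPM in FE255del and 7002 to 7221 CPM in R219S libraries at day 1, against 11290 to 12020 CPM in EV libraries. At day 11 the same basal sum was 7136 to 8565 CPM in WT, 7480 to 7789 CPM in FE255del and 16020 to 17970 CPM in R219S libraries, against 13500 to 14590 CPM in EV libraries. For 20 luminal genes the sum at day 1 was 5732 to 5867 CPM in WT, 6334 to 6553 CPM in FE255del and 7479 to 7669 CPM in R219S libraries, against 6472 to 6769 CPM in EV libraries. At day 11 this luminal sum was 6639 to 7219 CPM in WT, 6472 to 6951 CPM in FE255del and 7048 to 7335 CPM in R219S libraries, against 6026 to 6201 CPM in EV libraries. The part of these cell-type lists in the results below was not tested, and in bulk RNA fewer cells of a type and less RNA per cell cannot be told apart.

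Psca, Ly6d, Ly6a and Ly6c1 lie within 334 kb of chromosome 15 in mm10, as annotated in GENCODE M21: Psca at chr15:74714839-74717069 on the plus strand, Ly6d at chr15:74762056-74763620, Ly6a at chr15:74994877-74998031 and Ly6c1 at chr15:75044018-75048830 on the minus strand. The other members lie apart, Cd24a at chr10:43578284-43584265 and Epcam at chr17:87635979-87651129 on the plus strand, and Prom1 at chr5:43993620-44102032 on the minus strand, where it overlaps the antisense gene Gm16401 (at most 1.04 CPM). Ly6a and Ly6c1 have close copies beside them, and how far reads can be told apart bears on their values. The first 78 bases of the coding sequence are shown for the 4 genes concerned, read from the GENCODE M21 annotation on mm10, with bases that differ from Ly6a in capitals.
Ly6a: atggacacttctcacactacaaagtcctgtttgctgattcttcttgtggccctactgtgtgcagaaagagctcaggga
Ly6i: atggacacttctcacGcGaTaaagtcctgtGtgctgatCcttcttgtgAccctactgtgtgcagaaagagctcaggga
Ly6c1: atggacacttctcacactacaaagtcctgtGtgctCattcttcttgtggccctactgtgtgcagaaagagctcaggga
Ly6c2: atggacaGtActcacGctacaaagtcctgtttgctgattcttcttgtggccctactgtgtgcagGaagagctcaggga
Over this stretch Ly6i differed from Ly6a at 6 bases, Ly6c1 at 2 and Ly6c2 at 4. Over the whole coding sequence the identity was 83.8% between Ly6a and Ly6c1, 86.4% between Ly6a and Ly6i, and 97.7% between Ly6c1 and Ly6c2. Of all 50-base stretches in their transcripts, 19.0% of Ly6a and 32.8% of Ly6c1 also occur in another gene, against none of Ly6d, Psca and Epcam, 2.75% of Cd24a and 0.34% of Prom1. Ly6a and Ly6c1 share 195 such stretches and Ly6c1 and Ly6c2 share 379, so the counts of Ly6a and Ly6c1 are uncertain to that extent. Ly6c2 stood at 0.0871 to 4.62 CPM in all libraries and Ly6i at 0.918 to 5.86 CPM, against 13.62 to 116.7 CPM for Ly6c1 and 637.7 to 1779 CPM for Ly6a.

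Per kilobase of exon, the mean level over all libraries was highest for Ly6a (786 CPM per kb), then Epcam (458.6) and Cd24a (446.2), and much lower for Ly6d (87.11), Psca (51.39), Ly6c1 (37.48) and Prom1 (11.53). Group means differed 40.3-fold for Ly6d, 13.6-fold for Prom1, 7.35-fold for Ly6c1 and 5.35-fold for Cd24a, against 3.23-fold for Psca, 2.49-fold for Ly6a and 2.48-fold for Epcam. R219S cultures at day 11 had the highest mean of Ly6a, Ly6d, Psca and Epcam.

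**Figure D1:**
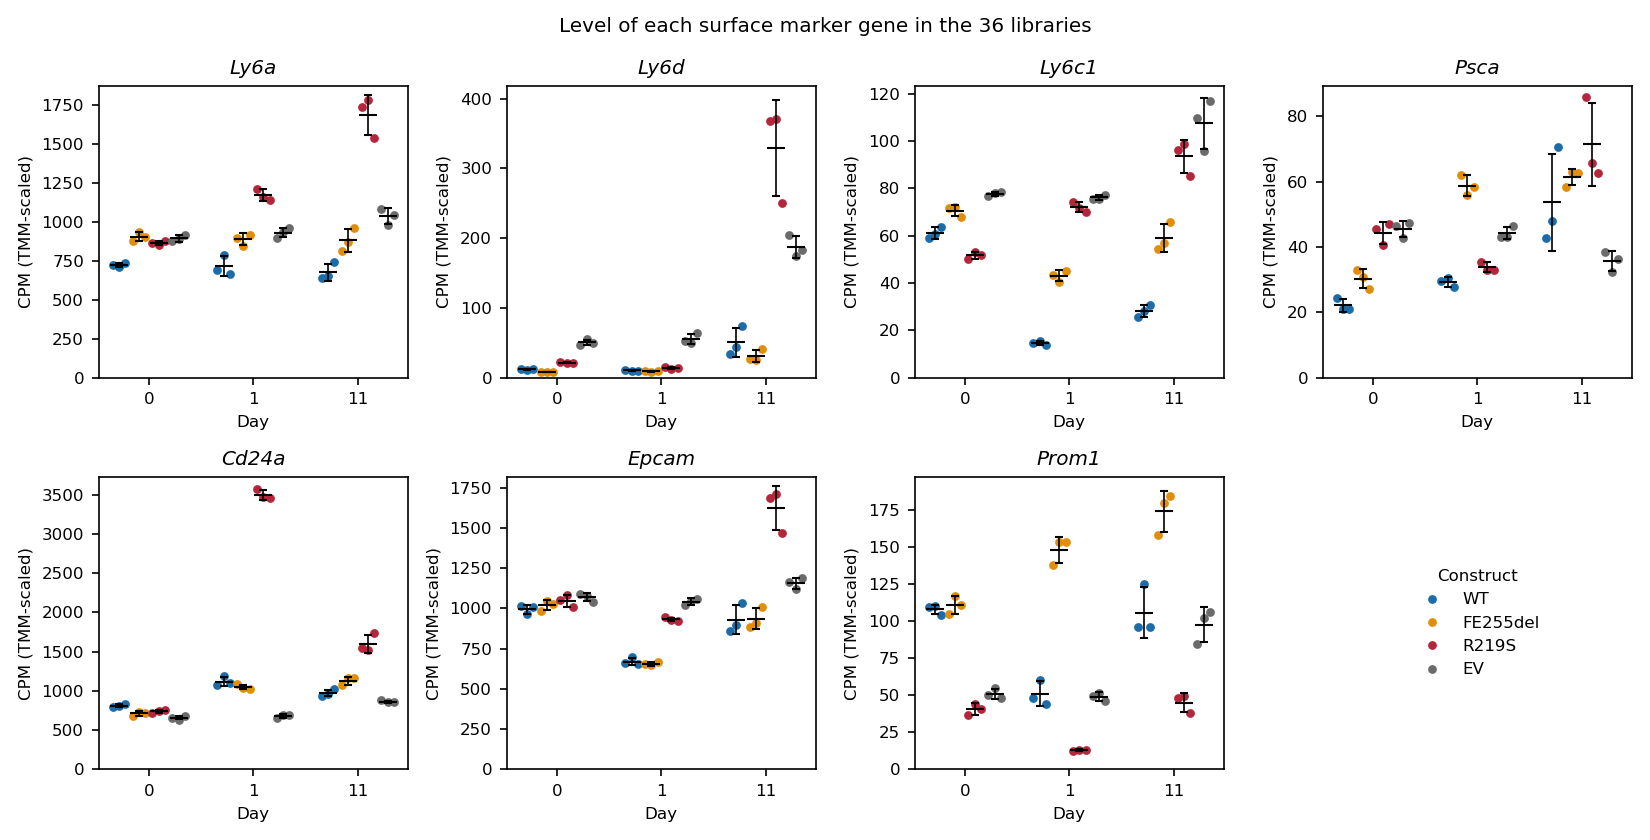
CPM of each of the 7 genes (vertical axes, linear from 0) by day (horizontal axes) for WT, FE255del, R219S and EV; points are libraries, and black dashes with bars are the mean and SD of 3. Cd24a stands at 3460 to 3575 CPM in R219S libraries at day 1, and Ly6d at 249.8 to 371.1 CPM in R219S libraries at day 11.

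Ly6a, whose product Sca-1 is the classical sort marker of mouse progenitor cells, was lower with WT and higher with R219S. At day 11 it stood at 1736, 1779 and 1541 CPM in R219S libraries, 637.7, 649.1 and 740.5 CPM in WT libraries and 813.7, 872.8 and 958 CPM in FE255del libraries, against 1081, 981.4 and 1045 CPM in EV libraries. No FOXA1 library overlapped with an EV library, and R219S lay above and the others below. The log2 fold change against EV, with the SE of the fit, was 0.70 ± 0.06 in R219S (adjusted p = 1.8e-11), -0.62 ± 0.06 in WT (adjusted p = 2.4e-10) and -0.23 ± 0.06 in FE255del (adjusted p = 0.00198). At day 1 it was 1213, 1157 and 1143 CPM in R219S and 691.9, 787.6 and 663.7 CPM in WT libraries, against 898, 936.6 and 957.4 CPM in EV libraries, again without overlap. WT was lower than EV already at day 0, at 724.7, 707.1 and 737.7 CPM against 874.3, 889.7 and 915.5 CPM (log2 -0.30 ± 0.06, adjusted p = 0.00022). Within WT and FE255del, Ly6a did not pass the test against day 0 on either later day, while in R219S it rose by 0.44 ± 0.06 (log2) at day 1 and 0.97 ± 0.06 at day 11. In the order of the 12 means, R219S at days 11 and 1 and EV at day 11 stood apart from each other. EV at day 1, FE255del on all days and EV and R219S at day 0 followed, each overlapping its neighbour, and the 3 WT groups came last and overlapped.

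Ly6c1, a close relative of Ly6a known from monocytes and endothelium, was lowest in WT at day 1. It stood at 14.8, 15.45 and 13.62 CPM in WT libraries and 43.47, 40.4 and 45 CPM in FE255del libraries, against 75.6, 75.64 and 77.22 CPM in EV libraries. The WT libraries were at 0.192 times EV (log2 -2.38 ± 0.07, adjusted p = 4.0e-24) and the FE255del libraries at 0.564 times EV (log2 -0.83 ± 0.07, adjusted p = 1.6e-12). R219S libraries at day 1, at 74.05, 71.78 and 69.85 CPM, lay just under EV and did not pass the test (log2 -0.08 ± 0.07, adjusted p = 0.326). At day 11 the order of the constructs was the same, with 25.58, 28.08 and 30.83 CPM in WT, 54.24, 56.7 and 65.56 CPM in FE255del and 96.32, 98.63 and 85.35 CPM in R219S libraries, against 109.6, 95.87 and 116.7 CPM in EV libraries. WT and FE255del lay below every EV library, while R219S overlapped with EV. On the log2 scale WT was at -1.93 ± 0.07 (adjusted p = 2.9e-21), FE255del at -0.87 ± 0.07 (adjusted p = 8.0e-13) and R219S at -0.20 ± 0.07 (adjusted p = 0.0183) against EV. R219S lost this call with only the compared groups in the fit (adjusted p = 0.117) and without EV replicate 1 (0.0571), EV replicate 3 (0.174) or R219S replicate 3 (0.141). At day 0 Ly6c1 was lower than EV in R219S (log2 -0.59 ± 0.07, adjusted p = 3.0e-07) and in WT (-0.35 ± 0.07, adjusted p = 0.00016), and FE255del did not pass the test (adjusted p = 0.153). It rose within R219S by 0.48 ± 0.07 at day 1 and 0.86 ± 0.07 at day 11, and fell within WT by 2.06 on the log2 scale at day 1.

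Ly6d, a marker of luminal progenitors, varied most of the 7 genes. At day 0 it was already low in all 3 FOXA1 constructs, at 11.63, 11.06 and 12.76 CPM in WT, 8.706, 7.934 and 7.915 CPM in FE255del and 21.81, 20.42 and 21.06 CPM in R219S libraries, against 47.29, 55.1 and 48.94 CPM in EV libraries. None of the FOXA1 libraries reached an EV library. FE255del was lowest, at a log2 fold change of -2.63 ± 0.22 (adjusted p = 3.4e-09), followed by WT at -2.09 ± 0.22 (adjusted p = 3.6e-08) and R219S at -1.26 ± 0.21 (adjusted p = 0.00012). At day 1 FE255del was at -2.66 ± 0.22 (adjusted p = 9.2e-11), WT at -2.44 ± 0.22 (adjusted p = 2.3e-10) and R219S at -2.0 ± 0.21 (adjusted p = 1.0e-08). At day 11 Ly6d stood at 368, 371.1 and 249.8 CPM in R219S, 34.1, 43.93 and 74.12 CPM in WT and 26.7, 25.12 and 40.94 CPM in FE255del libraries, against 204.3, 174.2 and 182.4 CPM in EV libraries. R219S lay above every EV library (log2 0.82 ± 0.19, adjusted p = 0.00144), and WT (-1.89 ± 0.20, adjusted p = 1.6e-08) and FE255del (-2.60 ± 0.21, adjusted p = 7.1e-11) lay below. Against its own day 0, R219S at day 11 was 15.6-fold higher, WT 4.28-fold and FE255del 3.78-fold, against 3.71-fold for EV. The rise in R219S beyond that of EV was 2.08 ± 0.28 on the log2 scale (adjusted p = 2.9e-06), whereas the rises in WT (0.21 ± 0.29, adjusted p = 0.707) and FE255del (0.03 ± 0.29, adjusted p = 0.988) did not pass this test. FE255del was below WT at day 11 (log2 -0.71 ± 0.20, adjusted p = 0.0132), with overlapping libraries. That call was lost without WT replicate 3 (log2 -0.33, adjusted p = 0.201), without FE255del replicate 1 (0.0646) or 2 (0.0862), and with only the compared groups in the fit (0.335).

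Psca, a GPI-anchored antigen first described in prostate cancer, changed direction over time. At day 0 it stood at 24.32, 21.01 and 21 CPM in WT and 32.94, 30.78 and 27.17 CPM in FE255del libraries, against 46.51, 42.62 and 47.25 CPM in EV libraries. The log2 fold change was -1.04 ± 0.13 in WT (adjusted p = 6.0e-07) and -0.59 ± 0.13 in FE255del (adjusted p = 0.0015), and R219S, at 45.43, 40.44 and 47.02 CPM, overlapped with EV (adjusted p = 0.881). At day 1 FE255del libraries, at 62.09, 55.78 and 58.22 CPM, were above the EV libraries at 43.09, 43.1 and 46.36 CPM (log2 0.41 ± 0.13, adjusted p = 0.00731). WT (29.71, 30.34 and 27.62 CPM) and R219S (35.53, 33.08 and 33.05 CPM) were below them, with log2 fold changes of -0.60 ± 0.13 (adjusted p = 0.00021) and -0.38 ± 0.13 (adjusted p = 0.0141). The R219S call was lost without EV replicate 3 (adjusted p = 0.0516). At day 11 all 3 FOXA1 constructs were above EV, at 42.62, 47.95 and 70.5 CPM in WT, 58.47, 63 and 62.73 CPM in FE255del and 85.97, 65.67 and 62.51 CPM in R219S libraries, against 38.35, 32.42 and 36.41 CPM in EV libraries. No FOXA1 library overlapped with EV. R219S stood 1.00 ± 0.13 above EV on the log2 scale (adjusted p = 3.6e-07), FE255del 0.78 ± 0.13 (adjusted p = 1.1e-05) and WT 0.59 ± 0.13 (adjusted p = 0.00043). The WT value was 0.34 without WT replicate 3 and lost its call with only the compared groups in the fit (adjusted p = 0.0692). Since day 0, relative to EV, Psca rose by 1.63 ± 0.18 (log2) in WT (adjusted p = 1.3e-07), by 1.37 ± 0.18 in FE255del (adjusted p = 1.4e-06) and by 1.04 ± 0.18 in R219S (adjusted p = 6.4e-05).

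Cd24a, used with other antigens to sort epithelial cells, was higher in all 3 FOXA1 constructs at days 1 and 11. At day 1 it reached 3575, 3468 and 3460 CPM in R219S libraries, 1072, 1185 and 1093 CPM in WT libraries and 1081, 1035 and 1028 CPM in FE255del libraries, against 651.1, 691.1 and 684.4 CPM in EV libraries. Every FOXA1 library lay above every EV library, and R219S lay above all others. R219S was 5.18-fold higher than EV (log2 2.37 ± 0.05, adjusted p = 2.9e-28), WT 1.65-fold (adjusted p = 2.1e-15) and FE255del 1.55-fold (adjusted p = 1.1e-13). At day 11 R219S libraries stood at 1542, 1520 and 1733 CPM, WT at 939.2, 963.9 and 1019 CPM and FE255del at 1067, 1161 and 1157 CPM, against 877.1, 854.5 and 855 CPM in EV libraries. The R219S value had come down from day 1 but remained the highest at day 11 (log2 0.89 ± 0.05 against EV, adjusted p = 7.0e-17), while FE255del was at 0.39 ± 0.05 (adjusted p = 2.0e-08) and WT at 0.18 ± 0.05 (adjusted p = 0.00267). At day 0 WT was already 0.31 ± 0.05 above EV (adjusted p = 5.4e-06), further than at day 11. Set against EV's own change, the WT change from day 0 to day 11 was -0.13 ± 0.07 and did not pass (adjusted p = 0.187). WT thus showed no gain on EV between these days. R219S at day 0 stood 0.17 ± 0.05 above EV (adjusted p = 0.0075), a call lost without EV replicate 2 (adjusted p = 0.0598). FE255del at day 0 did not pass the test (adjusted p = 0.0666), and did so without its replicate 1 (0.034) or with only the compared groups in the fit (0.00919).

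Epcam, the adhesion molecule of simple and glandular epithelium, passed no test against EV at day 0, fell with WT and FE255del at day 1, and rose with R219S at day 11. At day 1 it stood at 657.7, 695 and 652.5 CPM in WT, 652.7, 646.6 and 669.1 CPM in FE255del and 945.5, 926.4 and 925.1 CPM in R219S libraries, against 1021, 1048 and 1059 CPM in EV libraries. All FOXA1 libraries lay below EV, WT and FE255del furthest. WT was at -0.64 ± 0.06 on the log2 scale (adjusted p = 2.7e-12), FE255del at -0.67 ± 0.06 (adjusted p = 1.4e-12) and R219S at -0.16 ± 0.06 (adjusted p = 0.0145), and the R219S call was lost with RLE scaling (adjusted p = 0.0555) and with DESeq2 (adjusted p = 0.0501). At day 11 it stood at 1690, 1714 and 1470 CPM in R219S, 862, 894.8 and 1034 CPM in WT and 886, 911.1 and 1011 CPM in FE255del libraries, against 1165, 1121 and 1189 CPM in EV libraries. R219S lay above and WT and FE255del below EV, without overlap. The log2 fold change was 0.49 ± 0.06 in R219S (adjusted p = 6.7e-09), -0.32 ± 0.06 in WT (adjusted p = 1.3e-05) and -0.31 ± 0.06 in FE255del (adjusted p = 2.0e-05). The adjusted p at day 0 was 0.199 for WT, 0.425 for FE255del and 0.758 for R219S. The WT value (log2 -0.10) passed with only the compared groups in the fit (0.0347).

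Prom1, which encodes CD133, was higher than EV in FE255del and lower in R219S at days 1 and 11. At day 1 it stood at 137.9, 153.4 and 153.1 CPM in FE255del libraries and 12.28, 13.18 and 13.01 CPM in R219S libraries, against 49.15, 51.67 and 46.1 CPM in EV libraries. FE255del lay above and R219S below every EV library, and WT, at 48.03, 60.17 and 44.05 CPM, overlapped with EV. The log2 fold change was 1.60 ± 0.12 in FE255del (adjusted p = 2.1e-12), -1.93 ± 0.12 in R219S (adjusted p = 2.3e-13) and 0.05 ± 0.11 in WT (adjusted p = 0.732). At day 0 both WT (109.5, 109.8 and 104.3 CPM) and FE255del (105, 117.1 and 110.7 CPM) already had more than EV (50.17, 54.45 and 47.98 CPM), at 2.12-fold (adjusted p = 3.4e-08) and 2.18-fold (adjusted p = 4.2e-08). R219S at day 0, at 36.57, 44.27 and 40.89 CPM, was lower (log2 -0.32 ± 0.12, adjusted p = 0.0481). That call was lost without filtering (adjusted p = 0.0817), and without EV replicate 1 (0.0865), 2 (0.186) or 3 (0.0509) or R219S replicate 1 (0.168) or 3 (0.102). At day 11 it stood at 158, 179.7 and 184.4 CPM in FE255del, 47.83, 49.05 and 37.65 CPM in R219S and 95.78, 125.3 and 95.66 CPM in WT libraries, against 84.19, 102.2 and 106.3 CPM in EV libraries. FE255del was again above (log2 0.84 ± 0.11, adjusted p = 5.8e-07), R219S below (-1.12 ± 0.12, adjusted p = 7.7e-09) and WT overlapping with EV (0.11 ± 0.11, adjusted p = 0.465). Since day 0, Prom1 fell by 1.09 on the log2 scale in WT and by 1.66 in R219S at day 1, but rose by 0.42 ± 0.11 in FE255del. From day 0 to day 11 it rose by 0.65 ± 0.11 in FE255del and by 0.94 ± 0.11 in EV. The change of FE255del minus that of EV at day 11 (log2 -0.29) did not pass, so the excess of FE255del at day 11 was not beyond that at day 0.

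The share of all 18176 tested genes that passed was large in most comparisons, and the counts of members are given beside it. The members were chosen with earlier results of these data known, and Ly6a, Cd24a and Epcam have high counts. An excess of members over that share is therefore a description and not a test. Against EV at day 0, 6 of the 7 genes differed in WT (2 higher, 4 lower), where 22.7% of all genes did, 3 in FE255del (1 higher, 2 lower; 20.8% of all genes) and 4 in R219S (1 higher, 3 lower; 20.1% of all genes). The R219S count was 2 without EV replicate 2, and the FE255del count was 5 with only the compared groups in the fit. At day 1, 6 differed in WT (1 higher, 5 lower), 6 in FE255del (3 higher, 3 lower) and 6 in R219S (2 higher, 4 lower), beside 60.5%, 53.2% and 48.5% of all genes in these comparisons. At day 11, 6 differed in WT (2 higher, 4 lower; 40.6% of all genes), all 7 in FE255del (3 higher, 4 lower; 42.2%) and all 7 in R219S (5 higher, 2 lower; 32.1%). Cd24a and Psca were higher than EV at day 11 in all 3 FOXA1 constructs, and Ly6a, Ly6d and Epcam were higher in R219S and lower in WT and FE255del. Ly6c1 was lower in all 3, but in R219S only at log2 -0.20, with overlapping libraries and a call lost under other settings. R219S was already at -0.59 for Ly6c1 at day 0, and its change since then exceeded that of EV. The comparisons against EV share the EV libraries.

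**Figure D2:**
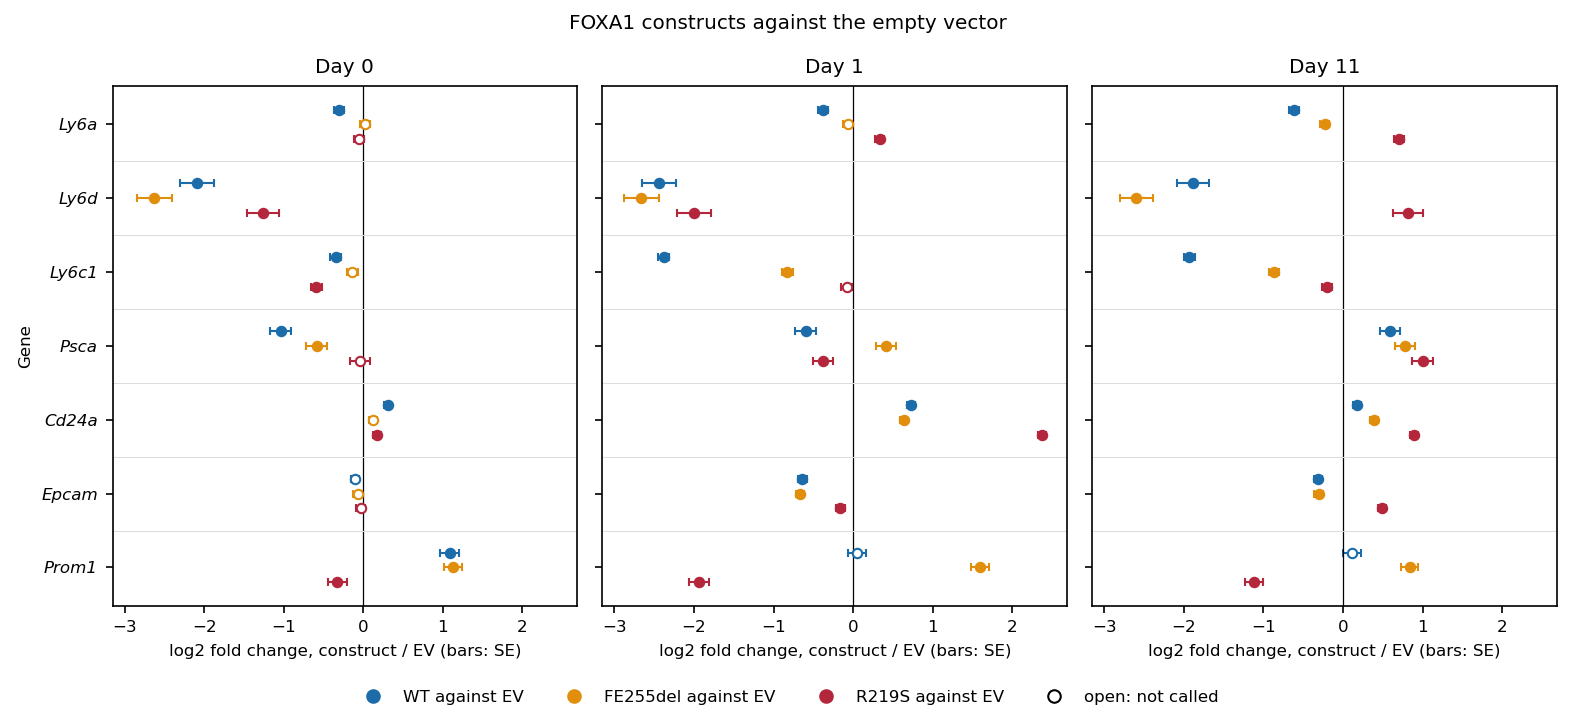
Log2 fold change of each gene against EV at days 0, 1 and 11 (horizontal axes; bars are SE of the fit) for WT, FE255del and R219S; filled points passed at an adjusted p under 0.05. At day 11 Ly6d is at 0.82 in R219S, against -1.89 in WT and -2.60 in FE255del.

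At day 11 R219S differed from WT in all 7 genes (6 higher, 1 lower), where 48.9% of all genes differed. The largest difference was in Ly6d, at 6.51-fold (log2 2.70 ± 0.20, adjusted p = 1.9e-11), followed by Ly6c1 at 3.32-fold (adjusted p = 2.2e-20) and Ly6a at 2.49-fold (adjusted p = 7.7e-19), and Prom1 was at 0.425 times WT (adjusted p = 5.3e-10). Psca was higher in R219S than in WT with overlapping libraries (log2 0.41 ± 0.12, adjusted p = 0.00727), a call lost without WT replicate 1 (adjusted p = 0.0802) or R219S replicate 1 (0.0988) and with only the compared groups in the fit (0.215), and the value was 0.66 without WT replicate 3. FE255del at day 11 differed from WT in 5 genes (4 higher, 1 lower), where 17.7% of all genes differed. Ly6c1 was 2.09-fold higher (adjusted p = 1.0e-13), Prom1 1.65-fold (adjusted p = 2.1e-05) and Ly6a 1.3-fold (adjusted p = 1.2e-05), and Psca, at 0.20 ± 0.13 (adjusted p = 0.334), passed only without WT replicate 3 (0.44, adjusted p = 0.00223).

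At day 1 R219S differed from WT in 5 genes (4 higher, 1 lower; 59.6% of all genes) and FE255del in 4, all higher (41.7% of all genes). Ly6c1 was 4.92-fold higher in R219S (adjusted p = 9.0e-24) and 2.94-fold higher in FE255del (adjusted p = 3.5e-18) than in WT. Cd24a was 3.13-fold higher in R219S (adjusted p = 6.3e-25) and did not pass in FE255del (log2 -0.09 ± 0.05, adjusted p = 0.12; 0.0262 with total-count scaling). Prom1 was at 0.253 times WT in R219S (adjusted p = 7.6e-14) and 2.92 times WT in FE255del (adjusted p = 1.3e-11). At day 0 R219S differed from WT in 6 genes (3 higher, 3 lower; 39.8% of all genes), most in Prom1 (log2 -1.41 ± 0.12, adjusted p = 2.4e-10) and Psca (1.00 ± 0.13, adjusted p = 6.4e-07). FE255del differed in 4 (3 higher, 1 lower; 26.8% of all genes), with Psca at 0.45 ± 0.13 (adjusted p = 0.0106). The difference of Cd24a between R219S and WT at day 0 (log2 -0.13) was lost without WT replicate 2 (adjusted p = 0.0575) or 3 (0.0953) or R219S replicate 1 (0.102). That of Ly6c1 between FE255del and WT (0.21) was lost without WT replicate 1 (adjusted p = 0.0891) or 2 (0.0589) or FE255del replicate 1 (0.0535) or 2 (0.0747).

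**Figure D3:**
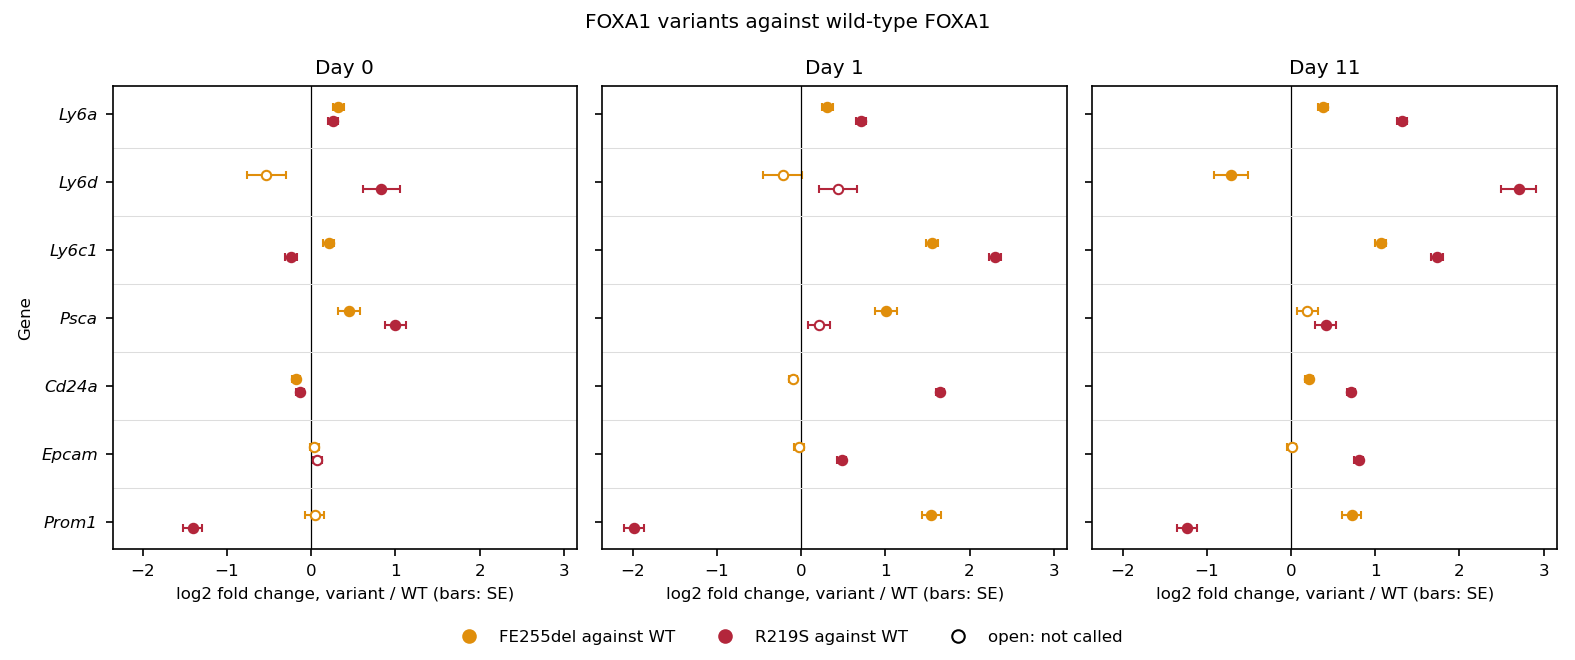
Log2 fold change of each gene in FE255del and R219S against WT at days 0, 1 and 11 (horizontal axes; bars are SE of the fit); filled points passed at an adjusted p under 0.05. Prom1 in R219S is at -1.41, -1.98 and -1.24 on the 3 days.

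Within the constructs, EV cultures at day 1 passed the test against day 0 in 0 of the 7 genes by edgeR, where 1.43% of all genes passed. The smallest adjusted p among the 7 was 0.848, 0 of them had an unadjusted p under 0.05, and DESeq2 also called 0. At day 11 EV differed from its day 0 in 6 of the 7 genes (5 higher, 1 lower; 47.6% of all genes), with Ly6d 3.71-fold higher (adjusted p = 1.6e-08), Prom1 1.92-fold (adjusted p = 1.1e-07), Ly6c1 1.38-fold and Cd24a 1.32-fold. Psca was lower there (log2 -0.35 ± 0.13, adjusted p = 0.0264), a call lost without filtering (adjusted p = 0.0733) and without EV day 0 replicate 1 (0.0677) or 3 (0.0774) or EV day 11 replicate 2 (0.116). WT differed from its day 0 in 5 genes at day 1 (2 higher, 3 lower; 59.1% of all genes) and 4 at day 11 (3 higher, 1 lower; 47.2%). FE255del differed in 5 at day 1 (3 higher, 2 lower; 53.3%) and 5 at day 11 (4 higher, 1 lower; 54.8%). R219S differed in all 7 at day 1 (3 higher, 4 lower; 52.1%) and in 6 at day 11, all higher (59.8%), the exception being Prom1 (log2 0.14 ± 0.12, adjusted p = 0.305). At day 1 in R219S, the falls of Ly6d (log2 -0.61), Psca (-0.39) and Epcam (-0.17) each lost the call in a fit without 1 library: Ly6d without R219S day 1 replicate 2 (adjusted p = 0.0644), Psca without R219S day 0 replicate 3 (0.0518) and Epcam without R219S day 0 replicate 2 (0.0522), and Epcam also with total-count scaling (0.174).

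**Figure D4:**
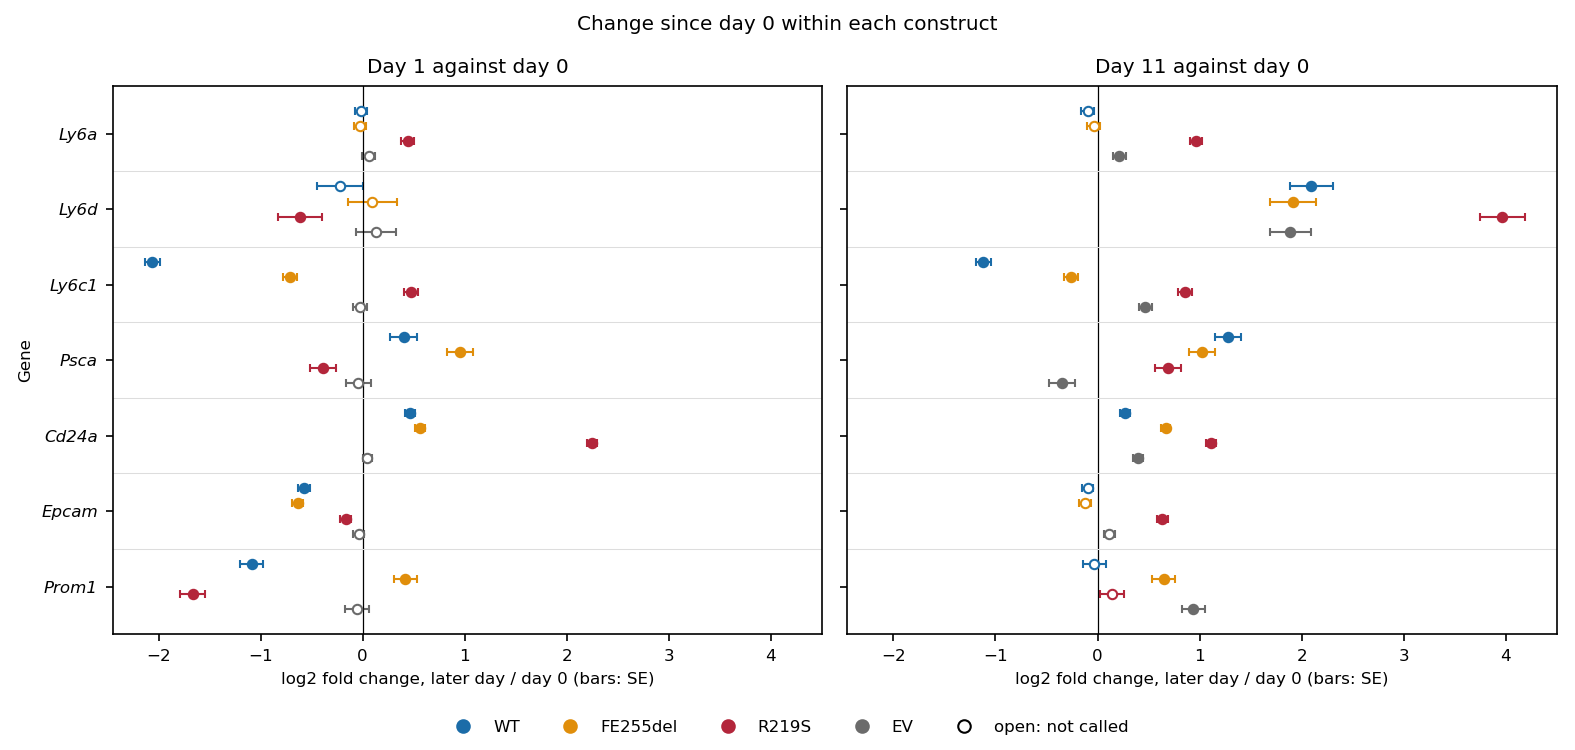
Log2 fold change of each gene at day 1 and day 11 against day 0 within WT, FE255del, R219S and EV (horizontal axes; bars are SE of the fit); filled points passed at an adjusted p under 0.05. At day 1 the EV points lie between -0.06 and 0.13, while Ly6c1 is at -2.06 in WT and Cd24a at 2.25 in R219S.

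Because some differences were present at day 0, the change of each construct since day 0 was also set against that of EV. At day 1, 4 of the 7 changes differed from EV's in WT (44.0% of all genes did), 5 in FE255del (40.2%) and 5 in R219S (39.3%). At day 11, 5 differed in WT (21.4%), 5 in FE255del (20.5%) and all 7 in R219S (27.1%). In R219S at day 11 the change exceeded that of EV in Ly6d, Psca, Ly6a (0.75 ± 0.09, adjusted p = 2.5e-08), Cd24a (0.72 ± 0.07, adjusted p = 3.2e-10), Epcam (0.52 ± 0.08, adjusted p = 3.5e-06) and Ly6c1 (0.39 ± 0.09, adjusted p = 0.00202), and fell short of it in Prom1 (-0.80 ± 0.16, adjusted p = 0.00044). These values leave out what already differed at day 0, such as the lower Ly6d of WT, FE255del and R219S and the higher Prom1 of WT and FE255del. Ly6d in R219S went from -1.26 against EV at day 0 to 0.82 at day 11 on the log2 scale. The FE255del count at day 11 was 3 with only the compared groups in the fit, and also without FE255del day 0 replicate 2, EV day 11 replicate 3, or FE255del day 11 replicate 1 or 2.

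The stretch of chromosome 15 from Psca to Ly6c1 holds 27 annotated genes, of which the 4 members and 10 others were tested. At day 11, 7 of these 10 neighbours were higher in R219S than in EV and none was lower, with a median log2 fold change of 1.05, whereas 1 was higher and 4 lower in WT (median -0.06) and 2 higher and 2 lower in FE255del (median -0.05). Of all tested genes, 32.1% passed in R219S, 40.6% in WT and 42.2% in FE255del, so the number called was near the background in WT and FE255del. The median over all tested genes was between -0.00 and 0.01 in these 3 comparisons. Several neighbours were near the floor. Slurp2 averaged 0.057 CPM over all libraries, Slurp1 0.45, Lypd2 0.46 and 2010109I03Rik 0.73. Their log2 fold changes in R219S were 1.27 (not passed), 1.98, 1.10 and 1.81, so the median of 1.05 rests partly on them. The neighbours with the most counts changed less: Them6 (21.18 CPM) by 0.63, Lynx1 (36.21 CPM) by 0.72 and Ly6e (1273 CPM) by 0.18. At levels in between, Gm17189 (5.33 CPM) changed by 1.04 (adjusted p = 4.9e-10) and D730001G18Rik (2.96 CPM) by 0.38, which did not pass. Ly6i, next to Ly6a and 86.4% identical to it in coding sequence, was 5.861, 5.521 and 5.244 CPM in R219S and 0.9855, 1.026 and 1.181 CPM in WT libraries, against 2.335, 2.74 and 2.85 CPM in EV libraries. R219S lay above and WT below all EV libraries (log2 1.07 ± 0.12, adjusted p = 1.2e-08, and -1.31 ± 0.14, adjusted p = 6.1e-10). Lynx1, a modulator of acetylcholine receptors, was also higher in R219S (log2 0.72 ± 0.06, adjusted p = 3.0e-11), and so was Slurp1, a secreted member of the family (1.98 ± 0.53, adjusted p = 0.00343). Slurp1 was near the floor, at 0.4282, 0.6198 and 0.2208 CPM in R219S libraries, against 0.1592, 0.1252 and 0.03016 CPM in EV libraries. Ly6e, at 1858, 1918 and 1512 CPM in R219S libraries and 1383, 1565 and 1708 CPM in EV libraries, overlapped and did not pass the test (0.18 ± 0.08, adjusted p = 0.0605). Ly6c1, at the other end, was lower in WT and FE255del, and in R219S only at log2 -0.20 with libraries that overlapped with EV. At day 1 in R219S, 5 of the 10 neighbours were higher and none was lower (median 0.12), a share near the 48.5% of all genes that passed.

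**Figure D5:**
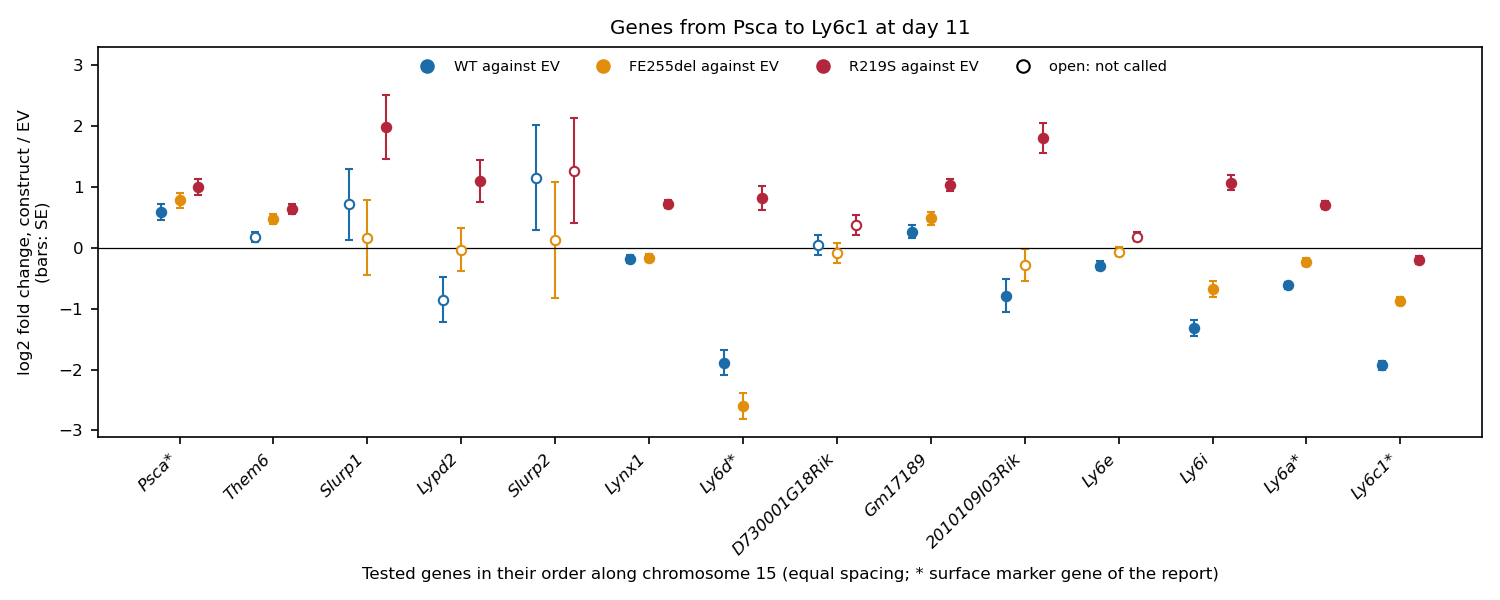
Log2 fold change against EV at day 11 (vertical axis; bars are SE of the fit) of the tested genes from Psca to Ly6c1 in chromosome order (horizontal axis, equal spacing) for WT, FE255del and R219S; filled points passed at an adjusted p under 0.05. Of the 10 genes without an asterisk, 7 are filled and above 0 for R219S and none is filled and below 0.

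Genes of the same families and uses were counted from lists, which can hold members as well. Of 25 tested genes of the Ly6 and uPAR family, members included, 11 were higher and 4 lower in R219S than in EV at day 11 (median log2 0.18, against -0.00 over all tested genes, of which 17.7% were higher and 14.4% lower). The calls of Ly6a, Ly6d, Psca and Ly6c1 given above are thus counted again here. How far this list also repeats the neighbours between the members was not counted. In WT 4 were higher and 13 lower (median -0.30; 21% and 19.7% of all genes), and in FE255del 2 were higher and 13 lower (median -0.43; 22.6% and 19.6% of all genes). Lypd6b was at 12.69 CPM in R219S, against 1.299 CPM in EV (log2 3.29, adjusted p = 1.9e-17). Lypd3, a keratinocyte adhesion protein of the family, was at 10.91 CPM in WT and 9.157 CPM in FE255del, against 38.42 CPM in EV (adjusted p = 4.0e-13 and 2.7e-14). Plaur, the urokinase receptor, was higher in WT, at 31.87 CPM against 14.61 CPM in EV (log2 1.12, adjusted p = 1.5e-14). At day 1 Ly6g was at 0.5909 CPM in WT and 1.249 CPM in FE255del, against 13.17 CPM in EV (adjusted p = 3.1e-19 and 7.4e-17).

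Of 24 tested genes of luminal progenitor cells, 4 were higher and 17 lower in R219S than in EV at day 1 (median log2 -1.38, against -0.04 over all genes, of which 23.2% were higher and 25.3% lower). The fall included the keratins Krt7, at 484.1 CPM against 1615 CPM in EV (log2 -1.74, adjusted p = 9.9e-26), and Krt4, at 243 CPM against 1083 CPM in EV (log2 -2.16, adjusted p = 6.6e-21). In WT at day 1 it was 7 higher and 12 lower (median -0.24), and in FE255del 9 higher and 9 lower (median -0.00, or 0.10 with total-count scaling), beside 60.5% and 53.2% of all genes that passed. Aldh1a1, a retinaldehyde dehydrogenase, was higher in both, at 309.3 CPM in WT and 269.9 CPM in FE255del, against 38.75 CPM in EV (adjusted p = 1.5e-23 and 1.2e-22). At day 11 the counts were 9 higher and 10 lower in R219S (median -0.12), 11 and 8 in WT (median 0.14) and 12 and 9 in FE255del (median 0.16), where 32.1%, 40.6% and 42.2% of all genes passed.

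Of 25 tested genes of other surface markers used for sorting, 6 were higher and 15 lower in WT than in EV at day 1 (median log2 -0.62), 6 and 15 in FE255del (median -0.50), and 10 and 11 in R219S (median -0.11). In these comparisons 60.5%, 53.2% and 48.5% of all genes passed. Cd44, the hyaluronan receptor, was at 268.6 CPM in WT and 414.9 CPM in FE255del, against 1033 CPM in EV (log2 -1.94 and -1.32), and Itgb4, the laminin receptor subunit of basal cells, was at 174.7 and 200.6 CPM, against 651.1 CPM in EV (log2 -1.90 and -1.70). Cd55, a GPI-anchored complement regulator, was at 410.4 CPM in R219S, against 15.42 CPM in EV (log2 4.73, adjusted p = 1.3e-31). At day 11 the list held 14 higher and 6 lower genes in R219S (median 0.33), 6 and 13 in WT (median -0.24) and 10 and 13 in FE255del (median -0.28), beside 32.1%, 40.6% and 42.2% of all genes. Nt5e (CD73) was at 43.14 CPM in R219S, against 4.76 CPM in EV (log2 3.18, adjusted p = 2.3e-14).

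Of 19 tested genes whose products bind or process EpCAM or CD24, 3 were higher and 10 lower in WT, 5 and 11 in FE255del and 6 and 11 in R219S at day 1 (medians -0.17, -0.19 and -0.16), where 60.5%, 53.2% and 48.5% of all genes passed. At day 11, 10 were higher and 4 lower in R219S (median 0.19), where 32.1% of all genes passed. The tight junction gene Cldn1 was at 9.263 CPM in WT and 7.121 CPM in FE255del at day 11, against 35.89 CPM in EV (adjusted p = 4.2e-15 and 8.1e-17). Of 17 tested prominin and membrane protrusion genes, 2 were higher and 6 lower in WT, 5 and 8 in FE255del and 6 and 4 in R219S at day 11 (medians -0.17, -0.23 and 0.04, the last at -0.01 with total-count scaling), beside 40.6%, 42.2% and 32.1% of all genes. Prom2, the other prominin gene, was at 12.76, 14.59 and 14.12 CPM in FE255del, 5.874, 5.192 and 6.487 CPM in WT and 8.607, 7.865 and 8.204 CPM in R219S libraries at day 1, against 10.92, 11.79 and 11.94 CPM in EV libraries. FE255del lay above EV (log2 0.26 ± 0.10, adjusted p = 0.0283), and WT (-0.98 ± 0.10, adjusted p = 3.7e-10) and R219S (-0.49 ± 0.10, adjusted p = 0.00013) lay below.

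The genes that build the GPI anchor had medians near 0, whose sign changed with the scaling in FE255del and R219S. Of 32 tested, 5 were higher and 7 lower in WT, 6 and 6 in FE255del and 2 and 5 in R219S at day 11 (medians 0.01, -0.01 and 0.01; 0.05, 0.01 and -0.04 with total-count scaling). In these comparisons 40.6%, 42.2% and 32.1% of all genes passed, so the GPI anchor counts were near or below the background. Genes of the interferon response, a class to which Ly6 genes of mouse leukocytes also belong, were lower in WT and FE255del at day 11. Of 41 tested, 1 was higher and 39 lower in WT (median log2 -2.0) and 2 higher and 36 lower in FE255del (median -1.15), and 3 higher and 6 lower in R219S (median -0.14), where 40.6%, 42.2% and 32.1% of all genes passed. Zbp1, a sensor of nucleic acids, was at 1.674 CPM in WT and 3.305 CPM in FE255del, against 22.23 CPM in EV (log2 -3.74 and -2.75), while Ifit2 was higher, at 64.72 and 70.19 CPM, against 31.72 CPM in EV. The part of these genes in the levels of Ly6a and Ly6c1 was not tested.

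Across the 12 group means, genes from the 3 most like each member by Pearson r of log2 CPM, among 11188 genes, are given as a description, since the means share libraries and constructs. For Ly6a they were Ly6i (r = 0.976), which shares sequence with it, Brd3 (0.946) and Ak1 (0.938). For Ly6d they were Pacsin3 (0.975), Osbpl5 (0.962) and Sos2 (0.962), and for Ly6c1 Arhgap45 (0.926), St6galnac6 (0.923) and Slc3a2 (0.913). Psca had the least alike genes, Spint1 (0.896), Zfp472 (0.848) and Osbpl11 (0.84). For Cd24a they were Tmem9 (0.977), Dusp22 (0.975) and Eci2 (0.972). For Epcam, Ahnak2 (0.966) is given, and for Prom1 they were Ifit1bl1 (0.952), Slc9a9 (0.939) and Pllp (0.905). Over the 36 libraries, the r was lowest for Zfp472 with Psca, at 0.542.

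RefSeq promoter windows, from 250 bases before to 50 after the start, were at hand for Ly6c1, Epcam and Prom1, in 5 windows. Searched on both strands, neither of the forkhead strings TGTTTAC and TATTTAC nor the STAT string TTCNNNGAA occurred in any of the 5 windows, where 3.6%, 3.0% and 8.3% of 32851 such windows hold them. This says only that these letters are not in these windows.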

How the data were processed

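The authors deposited 1 table per library with an expected count for each of 45232 genes; STAR 2.4.2a, featureCounts 1.4.3 and mm10 are named in the submitters' processing notes, without their roles, and the annotation and strand setting are not given in the sources used here. Rounding touched 298311 deposited values, which missed a whole number by at most 3.0e-09. Of the values from 1 to 20, 69.7% are even, so both reads of a pair appear to be counted separately. Identifiers were matched to symbols through a gene name table for 44585 genes, and positions were read from GENCODE M21. The filterByExpr function of edgeR 4.0.16 in R 4.3.3 kept 18176 genes, TMM factors ran from 0.938 to 1.08, and 12 group means were fitted to 36 libraries with robust quasi-likelihood. Each of 29 comparisons was tested two-sided with the quasi-likelihood F test, adjusted by Benjamini-Hochberg over all tested genes, with a threshold of 0.05. The SE was derived from the test, as the unshrunk log2 fold change over the root of F, without its sign. The lowest Pearson r of 2 replicates over genes was 0.992, and no pair agreed within sampling noise (chi-square per degree of freedom at least 4.02). The procedure was tested on simulated data. The members and the gene lists were chosen with earlier results of these data known. Named genes are the 7 members, the 2 to 4 genes with the smallest p of each described list that are not members, the 3 genes most like each member by Pearson r (log2 CPM with a prior count of 3, mean of at least 2 CPM), Foxa1, and genes between the members on chromosome 15. Other settings were RLE and total-count scaling, no filter, a stricter filter that asked for a mean of 2 CPM and for 1 CPM in 6 libraries (11799 genes), only the compared groups, the replicate number as a block, DESeq2 1.42.0 and each library left out in turn. Some genes that this rule names are not reported here.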

Additional observations from a re-analysis of the deposited data

Results flagged for a closer look

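The change of a gene since day 0 was flagged where it differed from the change of EV over the same days by the interaction test of the fit (adjusted p under 0.05). Values are the log2 change of the construct minus that of EV, with its SE. In WT at day 1, it was -2.04 ± 0.10 for Ly6c1, 0.42 ± 0.07 for Cd24a, -0.54 ± 0.08 for Epcam and -1.03 ± 0.16 for Prom1. In FE255del at day 1, it was -0.69 ± 0.10 for Ly6c1, 1.00 ± 0.18 for Psca, 0.51 ± 0.07 for Cd24a, -0.60 ± 0.08 for Epcam and 0.47 ± 0.16 for Prom1. In R219S at day 1, it was 0.38 ± 0.09 for Ly6a, -0.74 ± 0.29 for Ly6d, 0.50 ± 0.10 for Ly6c1, 2.20 ± 0.07 for Cd24a and -1.61 ± 0.17 for Prom1. In WT at day 11, it was -0.31 ± 0.09 for Ly6a, -1.59 ± 0.10 for Ly6c1, 1.63 ± 0.18 for Psca, -0.21 ± 0.08 for Epcam and -0.97 ± 0.16 for Prom1. In FE255del at day 11, it was -0.25 ± 0.09 for Ly6a, -0.73 ± 0.09 for Ly6c1, 1.37 ± 0.18 for Psca, 0.27 ± 0.07 for Cd24a and -0.24 ± 0.08 for Epcam. In R219S at day 11, it was 0.75 ± 0.09 for Ly6a, 2.08 ± 0.28 for Ly6d, 0.39 ± 0.09 for Ly6c1, 1.04 ± 0.18 for Psca, 0.72 ± 0.07 for Cd24a, 0.52 ± 0.08 for Epcam and -0.80 ± 0.16 for Prom1. Of these 31 results, 5 lay close to the threshold: Ly6d in R219S at day 1 (adjusted p = 0.0459), Epcam in WT (0.0468) and FE255del (0.0248) at day 11, Ly6a in FE255del at day 11 (0.0334) and Prom1 in FE255del at day 1 (0.0198). Each of the 5 lost its call under at least 1 other setting: Ly6d with RLE scaling (0.066), Epcam in WT with RLE scaling (0.055), Epcam in FE255del with only the compared groups in the fit (0.0558), Ly6a with RLE scaling (0.054) and Prom1 without EV day 0 replicate 2 (0.0553). Ly6d also lost it with total-count scaling (0.0764) and without a filter (0.0922). Epcam in WT (0.0625) and Ly6a (0.0702) also lost it with only the compared groups in the fit. Each of the 5 lost its call in more than 1 fit that left out a library. No explanation of these differences was tested.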

How the results depend on the processing

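Of 203 results for the 7 genes, 151 passed. Of these 151, 0 changed sign under any alternative, 132 kept the call under every alternative and 19 lost it under at least 1 (12 of them under one other than leaving out a library); 14 more passed only under an alternative. Every result that changed sign had missed the threshold, and the cause was not tested. With total-count scaling, Ly6a was at 0.033 in FE255del against EV at day 1, 0.071 in WT at day 1 against day 0, 0.085 in FE255del at day 1 against day 0, 0.028 in FE255del at day 11 against day 0, 0.018 in the change of WT minus that of EV at day 1 and 0.032 in the change of FE255del minus that of EV at day 1. Epcam was at -0.0095 in FE255del against WT at day 0 and -0.013 in FE255del against WT at day 11 under the same setting. Prom1 was at -0.0039 in FE255del against WT at day 0 and 0.014 in WT at day 11 against day 0 under the same setting. Ly6d was at 0.083 in the change of FE255del minus that of EV at day 1 under the same setting. With RLE scaling, Ly6a was at 0.0033 in WT at day 1 against day 0 and 0.0026 in FE255del at day 1 against day 0. Ly6d was at 0.0062 in the change of FE255del minus that of EV at day 1 under the same setting. Without a filter, Ly6a was at 2.6e-05 in WT at day 1 against day 0, 6.0e-04 in FE255del at day 1 against day 0 and 9.4e-04 in FE255del at day 11 against day 0. Prom1 was at 3.6e-04 in WT at day 11 against day 0 under the same setting. With only the compared groups in the fit, Epcam was at -0.0075 in FE255del against WT at day 11. Ly6a was at 0.035 in WT at day 1 against day 0, 0.028 in FE255del at day 1 against day 0 and 0.0015 in FE255del at day 11 against day 0 under the same setting. Ly6d was at 0.028 in the change of FE255del minus that of EV at day 1 under the same setting. With DESeq2, Ly6a was at 0.0033 in WT at day 1 against day 0 and 0.0026 in FE255del at day 1 against day 0. Ly6d was at 0.0059 in the change of FE255del minus that of EV at day 1 under the same setting. Over the fits that left out 1 library, Ly6a ranged over -0.0048 to 0.041 in FE255del against EV at day 0, -0.094 to 0.033 in WT at day 1 against day 0, -0.054 to 0.0057 in FE255del at day 1 against day 0 and -0.10 to 0.017 in FE255del at day 11 against day 0. Psca ranged over -0.084 to 0.025 in R219S against EV at day 0. Prom1 ranged over -0.089 to 0.14 in WT against EV at day 1, -0.027 to 0.19 in WT against EV at day 11 and -0.17 to 0.035 in WT at day 11 against day 0. Epcam ranged over -0.044 to 0.0022 in FE255del against WT at day 1 and -0.05 to 0.092 in FE255del against WT at day 11. Ly6d ranged over -0.11 to 0.077 in the change of FE255del minus that of EV at day 1, -0.17 to 0.43 in the change of WT minus that of EV at day 11 and -0.23 to 0.16 in the change of FE255del minus that of EV at day 11. The genes called were 3777 for FE255del against EV at day 0 (2509 to 3515 with a library left out, the lowest without EV replicate 2), 3654 for R219S against EV at day 0 (2104 to 3526, the lowest without EV replicate 2), and 260 for EV at day 1 against day 0 (62 to 185 with a library left out, 171 under the stricter filter, 671 with only the compared groups and 396 with DESeq2). With only the compared groups, 3811 genes passed for R219S against EV at day 11 (5833 in the fit of 12 groups) and 1722 for FE255del against WT at day 11 (3213). The members called for R219S against EV at day 0 were 4 (2 to 4 with a library left out), those for FE255del against EV at day 0 were 3 (5 with only the compared groups), and those whose change in FE255del at day 11 differed from EV's were 5 (3 with only the compared groups, 3 to 5 with a library left out). 

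Replicate numbers did not pair the samples: in 0 of 23 comparisons were all 3 correlations of same-numbered libraries above 0.1 (range -0.281 to 0.282, median 0.00441). With the replicate number as a block, 1 result of the 7 genes changed its call, Psca in the change of WT at day 1 against that of EV (adjusted p = 0.0464 with the block and 0.0503 without). Among the other results that passed only under an alternative, Ly6d in FE255del against WT at day 0 (adjusted p = 0.0929) was at 0.0323 with DESeq2, and Epcam in EV at day 11 against day 0 (0.0846) was at 0.039 with DESeq2 and 0.0448 with RLE scaling.

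Total-count scaling moved the median of all genes by up to 0.12 on the log2 scale. The share of calls that were higher was then 61% each for WT and FE255del against EV at day 1 (49% and 48% with TMM), 47% for R219S against EV at day 0 (66% with TMM) and 43% at day 11 (55%), 45% for FE255del and 43% for R219S against WT at day 0 (58% and 60% with TMM), 37% for R219S against WT at day 11 (51%), 62% for FE255del and 56% for R219S at day 1 against day 0 (47% and 43% with TMM), and 58%, 59% and 55% for the change minus EV's at day 1 in WT, FE255del and R219S (46%, 43% and 41% with TMM).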
